A study of Rattus norvegicus with 12 samples.

Results

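Captopril-treated and untreated spontaneously hypertensive rats (SHR) were compared in the thoracic aorta, on 3 arrays titled SHR-Ca against 3 arrays titled SHR-C, which are 6 of the 12 arrays in the series. The arrays were taken by their titles, and no measured value entered that choice. All rats were male, and SHRs had been divided into their groups at random, per the labels. SHR-Ca rats received captopril by gavage once daily at 0.125 g/ml/day, as the labels write the dose, for 16 weeks from an age of 12 weeks, and SHR-C rats received water. The labels give an age of 32 weeks for every sample, which is not 12 and 16 added, and the sources used here do not settle which holds. The other 6 arrays held aorta of Wistar-Kyoto rats (WKY), a normotensive strain, given water, and of SHRs given BSJY, a herbal preparation, at its high dose (SHR-Bh). Each array read the Cy3 signal of 1 total RNA sample on an Agilent single-colour design. The labels do not tie an array to an animal, so the spread behind the p-values is that between samples and may be technical.

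The SHR is an inbred strain that becomes hypertensive as it ages, and its aorta is an elastic artery whose wall is mostly smooth muscle and matrix under an endothelial lining. Captopril blocks angiotensin-converting enzyme, which makes the vasoconstrictor angiotensin II from angiotensin I and also breaks down bradykinin, a vasodilator. Drugs of this class lower blood pressure and are known to limit the thickening of arteries in hypertensive animals.

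The arrays carried 38321 probes that were not controls, of which 37277 were known only by a design ID, without a gene name. A further 962 probes addressed 481 ultraconserved elements, which are stretches of genome identical between distant mammals, with a probe for each strand. An accession was attached to 62 probes, and 39 of these matched 38 rat genes. None of the 15 listed genes of the renin-angiotensin and kinin system was among them, nor any listed gene of nitric oxide signalling, contractile smooth muscle, extracellular matrix, inflammation or the circadian clock. None of 53 markers of 10 cell types was named either, so the labelled tissue could not be checked against smooth muscle or endothelial markers. No probe or element sequence was found in the sources used here.

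Levels are log2 processed intensities relative to the 75th percentile of the array, so a level of 0 is that percentile and a difference of 1 is 2-fold. They depend on each probe's own binding and are compared only between arrays. With 3 arrays a group, precision is limited throughout. In SHR-C the 75th percentile corresponded to intensities of 150.7 to 190.2, and in SHR-Ca to 133.2 to 183.4. The share of probes that the scanner software marked well above background was 64.6% ± 5.22 (SD, n = 3) in SHR-C and 62.0% ± 3.58 (SD, n = 3) in SHR-Ca, and an exact two-sided permutation test gave p = 0.5, where 3 against 3 cannot go below 0.1. SHR-C 1 stood apart, with 674 probes over 4-fold above both other arrays of its group, against 9 and 19 for SHR-C 2 and SHR-C 3. SHR-Ca 1 had 649 probes over 4-fold below both other arrays of its group, against 234 and 6 for SHR-Ca 2 and SHR-Ca 3, and SHR-Ca 2 had 244 above. The scan times placed SHR-C 1 in a session of its own and SHR-Ca 3 in one with SHR-Bh arrays, while the remaining 4 arrays of the comparison shared a session. The WKY arrays had a session to themselves, and no SHR-Bh array shared one with an SHR-C array. Group and session therefore cannot be told apart where WKY is set against any other group, or SHR-Bh against SHR-C.

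Nearly all probes that passed the test between captopril-treated and untreated SHR aorta were lower after captopril. Of 22790 probes well above background on all 3 arrays of either group, 94 (0.412%) passed limma's adjusted p under 0.05. Of these, 93 (0.408%) fell and 1 (0.00439%) rose. Only 43 of the falls were well above background on all arrays of both groups, and the others, 15 of them measured on 1 or 2 SHR-Ca arrays and 35 on none, entered the test through SHR-C alone, the group in which they were high. Over all probes tested, 1637 entered through SHR-C alone and 905 through SHR-Ca alone. The median difference over all probes tested was -0.02, and the median standard error was 0.31. The median SD between arrays was 0.30 in SHR-C and 0.37 in SHR-Ca. Without adjustment, 3024 probes (13.3%) had p under 0.05, 1715 lower (7.53%) and 1309 higher (5.74%), a far smaller tilt towards lower signals. By fitted value alone, 2446 probes (10.7%) differed at least 2-fold, 1756 lower (7.71%) and 690 higher (3.03%). The groups did not overlap for 4176 probes (18.3%), with 2139 (9.39%) above and 2037 (8.94%) below.

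For 43 of the 93 falls every SHR-Ca array was well above background. Those ranged from -4.01 to -1.06 on the log2 scale (median -2.25). The 58 that at least 1 SHR-Ca array measured ranged from -4.41 to -1.06 (median -2.28), in part on levels at the background. On 35 probes no SHR-Ca array was well above background, so only an approximate bound is known there. For each array the bound used whichever was higher, the level of the probe itself or the dimmest level still well above background. A probe could lie above that dimmest level without being well above background, as uc.138- did on SHR-Ca 1 (-4.12 against -4.45). The bounds are therefore not strict. They ran from about 1.38-fold to about 11.0-fold lower, with a median of 3.65-fold. The median level of the 93 probes was -1.63, -1.94 and -2.19 on SHR-C 1 to 3 and -4.03, -4.45 and -4.09 on SHR-Ca 1 to 3. Every SHR-Ca array lay below every SHR-C array for each of the 93, though the test that chose them favours such probes. On the other arrays the medians were -2.02, -2.23 and -2.39 for WKY and -3.59, -4.03 and -3.78 for SHR-Bh. The WKY medians lay near those of SHR-C, and the SHR-Bh medians below all SHR-C medians, with 2 of the 3 above all SHR-Ca medians. Near medians do not mean like levels probe by probe. Mean levels of the 93 ran from -7.01 to 6.82 in WKY and from -4.36 to 2.65 in SHR-C, and single probes differed in both directions. These values are a description, since both treatments are set against the same SHR-C arrays.

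**Figure D1:**
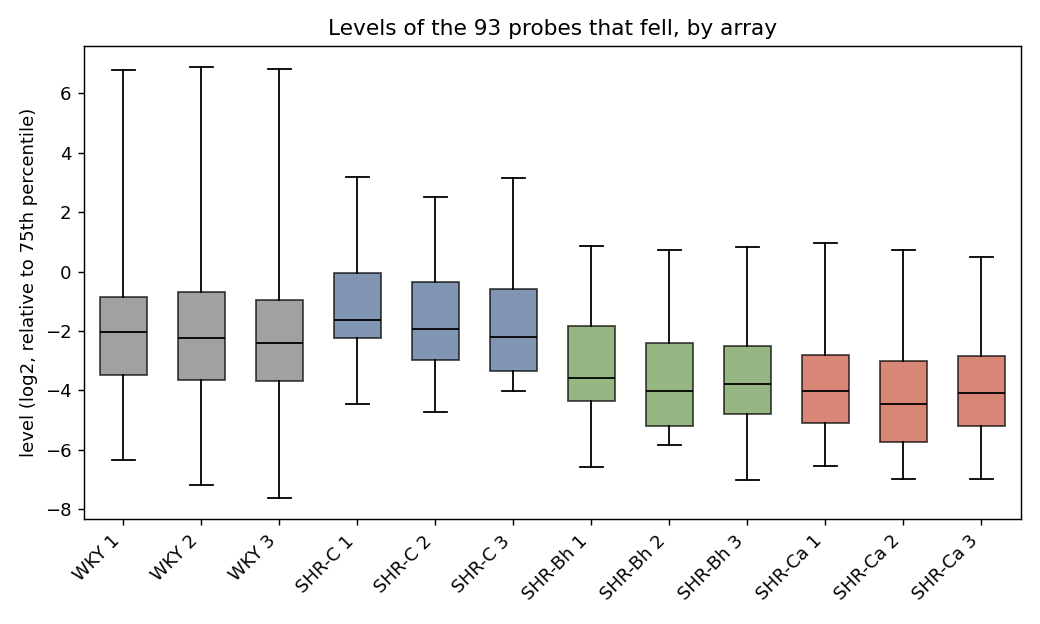
Levels (log2, relative to the array's 75th percentile) of the 93 probes that fell, on each of the 12 arrays. Lines in the boxes are medians, boxes span the middle quartiles, and whiskers reach the lowest and highest probe. The SHR-Ca medians lie between -4.45 and -4.03, and the SHR-C medians between -2.19 and -1.63.

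The falls lay among dim probes. In SHR-C their mean intensity had a median of 43.7, against 108.2 over all probes tested, and in SHR-Ca it was 7.54. When the tested probes were divided into 5 groups of 4558 by mean level over the 6 arrays, which includes the SHR-Ca values themselves, the dimmest held 51 of the falls, the next groups 20, 16 and 6, and the brightest none. SHR-C 1 was the highest of its group for 74 of the 93 probes. Leaving out that array left 36 probes called, while leaving out SHR-Ca 1 gave 160. In the session that held arrays of both groups, the 93 probes had a median difference of -2.21, and no probe of the array passed the adjusted test with 2 arrays a side (762 had an unadjusted p under 0.05). A fit on the 6 arrays alone also called 0 probes, with 2093 at an unadjusted p under 0.05, and background correction by normexp called 11. Normexp, which adds an offset of 50 to the intensities, also shrank the median difference of the 93 from -2.41 to -0.60 (highest -0.24). An offset of that size shrinks any difference between intensities as dim as these, so this setting cannot decide the size of the falls. The part of brightness in the falls was not tested.

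**Figure D2:**
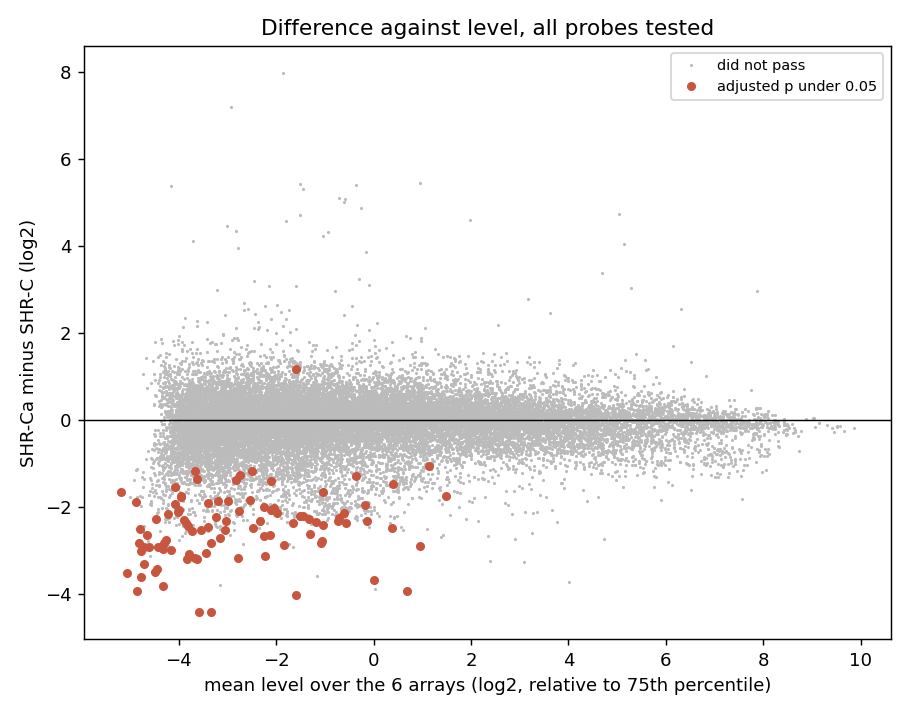
Fitted difference (SHR-Ca minus SHR-C, log2) against the mean level over the 6 arrays (log2, relative to the 75th percentile) for the 22790 probes tested. The 94 probes past an adjusted p of 0.05 are drawn large, and 93 of them lie below 0, mostly at low levels.

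The unnamed probe ASRNV20003716 was among the 43 falls well above background on every array of both groups. Its level was 0.74, 0.45 and 0.08 in SHR-C and -2.86, -3.93 and -3.98 in SHR-Ca. The groups were far apart, and the signal fell by 4.01 on the log2 scale (SE 0.36, adjusted p = 0.00136 by limma). With normexp the difference was -1.77 (adjusted p = 0.0271). The call was lost in 4 of 21 other settings, including the 6 arrays alone (adjusted p = 0.0638) and the shared scan session (adjusted p = 0.9). Its level was -2.37 ± 0.53 in SHR-Bh and -3.00 ± 0.31 in WKY (SD, n = 3 each), so untreated SHR aorta was the group in which it was high. ASRNV20030496 went from -0.84, -1.11 and -1.44 to -3.53, -6.67 and -6.43. The fitted fall was -4.41 (SE 0.70, adjusted p = 0.024 by limma). Only 1 SHR-Ca array was well above background, so its size rests on levels at the background on the others. The probe entered the test through SHR-C alone, the group in which it was high. The difference was -0.97 with normexp (adjusted p = 0.863), and the call was lost in 11 of 20 other settings. No WKY array measured this probe well above background.

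The only rise was that of ASRNV20001771, from -2.11, -1.91 and -2.54 in SHR-C to -1.05, -1.07 and -0.90 in SHR-Ca. The SHR-Ca arrays agreed closely and lay above all SHR-C arrays, a rise of 1.18 (SE 0.20) or 2.26-fold with an adjusted p of 0.0344 by limma. The call was lost in 14 of 21 other settings, and the difference was 0.48 with normexp (adjusted p = 0.863). The level was -1.74 ± 0.11 in SHR-Bh (SD, n = 3).

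The largest fitted differences upward did not pass the test. A difference above 4 on the log2 scale, which is 16-fold, was fitted for 21 unnamed probes. None of them was called by limma (adjusted p 0.0778 to 0.314), while 3 probes had a difference below -4 and all 3 were called. Of those 3, ASRNV20030496 was well above background on 1 SHR-Ca array and ASRNV20032257 on none. Both entered the test through SHR-C alone, the group in which they were high, so their size rests on levels at the background. The 21 probes were singled out after their values were seen, so what follows is a description. In SHR-C, 13 of the 21 were well above background on all arrays, 3 on some and 5 on none. All SHR-Ca arrays lay above all SHR-C arrays for 20 of the 21, and SHR-Ca 2 was the highest of its group for 19. Their median level was -3.50, -3.53 and -2.76 in SHR-C and -0.07, 4.71 and -0.18 in SHR-Ca, so SHR-Ca 2 stood far above the other captopril arrays. The WKY arrays were spread in a similar way, at -0.16, -2.75 and 2.61, with WKY 3 the highest for all 21 probes, whereas the SHR-Bh arrays stayed at -2.53, -3.17 and -3.02.

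Among the 5 with no SHR-C array above background, ASRNV20022775 was at -5.67, -5.64 and -6.24 in SHR-C and at 0.80, 6.11 and -0.50 in SHR-Ca. As an approximate bound on group means, it was about 123-fold higher in SHR-Ca, taking SHR-C at the dimmest level well above background. SHR-Ca 2 raised that mean, so the bound does not hold for each SHR-Ca array. The fitted difference was 7.98 (SE 1.60), with an adjusted p of 0.0778 by limma. Without SHR-Ca 2 the median difference of the 21 probes was 3.27, against 4.88 with it, and without SHR-Ca 1 it was 5.94. None of the 21 was called without SHR-Ca 2, and 1 was without SHR-Ca 1. With normexp their median was 2.83, and none was called. Of the 21 probes, 8 had design IDs within 20020809 to 20020819. What neighbouring IDs share is not given in the sources used here.

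Where the design IDs lie was also described for the falls, with a boundary set after the values were seen. Among tested probes with an ID number of 20027000 and above, 57 of 3915 fell (1.46%), against 34 of 18604 below that number (0.183%). The median difference was -0.25 in the upper range and 0.02 in the lower. All SHR-Ca arrays were below all SHR-C arrays for 17.7% of the upper probes and 7.06% of the lower. Upper probes were dimmer in SHR-C, with a median intensity of 46.8 against 138.7. In groups of similar brightness, dimmest first, 2.36%, 0.959%, 1.6%, 0.619% and 0% of upper probes fell. Of lower probes it was 0.578%, 0.261%, 0.106%, 0.0742% and 0%. Median levels of the upper probes were -2.03 to -1.71 on SHR-C arrays and -2.37 to -2.16 on SHR-Ca arrays. They were -2.15 to -2.09 on SHR-Bh arrays and -1.30 to -1.02 on WKY arrays. The part of brightness in the difference between ID ranges was not tested.

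**Figure D3:**
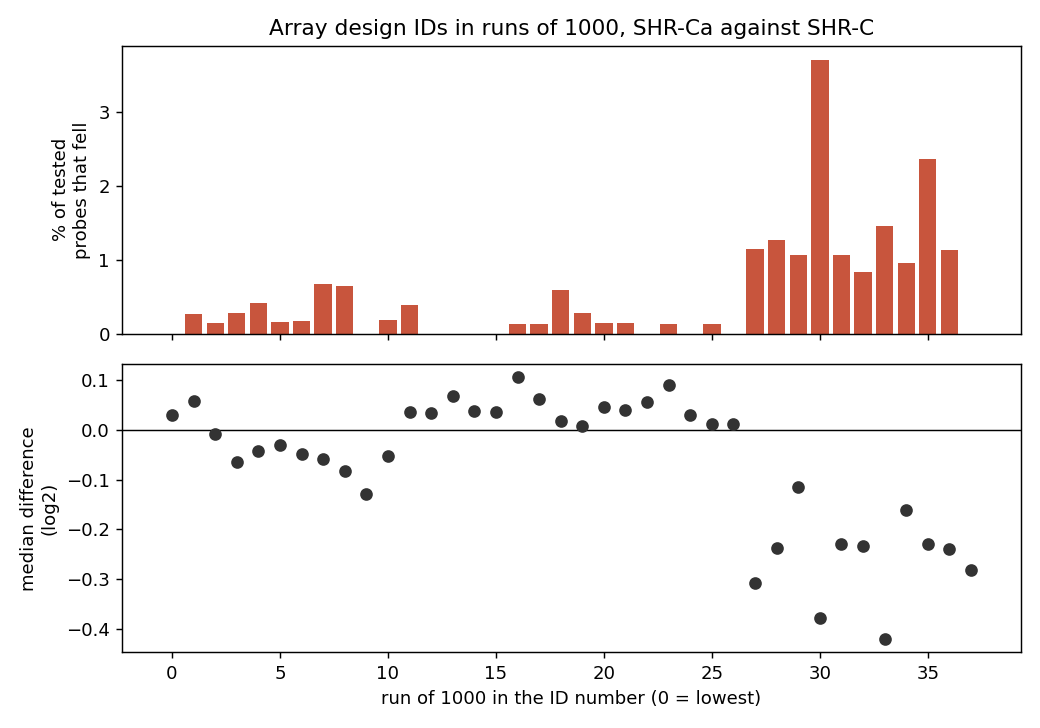
Design IDs in runs of 1000 by ID number, with the share of tested probes that fell (upper panel, %) and the median difference of SHR-Ca minus SHR-C (lower panel, log2). Runs from 27 upward, which are IDs of 20027000 and above, held 57 of 3915 probes that fell, and the earlier runs 34 of 18604.

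Of the ultraconserved element probes, 218 of 962 (22.7%) were tested, and 2 fell while none rose, beside 0.408% and 0.00439% of all probes tested. Transcripts from such elements, read from either strand, are a class of non-coding RNA whose functions are largely unknown. The 218 had a median difference of -0.22, with 126 lower and 92 higher, beside -0.02 over all probes tested. Within the scan session that held both groups their median was 0.01. All SHR-Ca arrays lay below all SHR-C arrays for 30 of them and above for 36, beside 8.94% and 9.39% of all probes. For 42 elements both strands were tested, and the 2 strands had opposite signs in 30, were both lower in 10 and both higher in 2.

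The minus-strand probe uc.138- was at -2.05, -1.67 and -2.03 in SHR-C and at -4.12, -5.60 and -5.15 in SHR-Ca. The fitted difference was -3.04 (SE 0.33, adjusted p = 0.0024 by limma). No SHR-Ca array was well above background, so that difference rests on levels at the background. The probe entered the test through SHR-C alone. As an approximate bound, which was not tested, the mean signal was about 6.96-fold lower on the processed intensities. With normexp the difference was -0.68 (adjusted p = 0.863). Its offset of 50 shrinks differences at such dim levels, so that setting cannot check the bound. It was -1.74 ± 0.20 in WKY and -4.02 ± 0.12 in SHR-Bh (SD, n = 3 each). The plus-strand probe of the same element was at 0.64, -2.75 and -1.93 in SHR-C and -2.55, -1.69 and -2.28 in SHR-Ca, which overlapped (difference -0.83, SE 0.80, adjusted p = 0.648). The plus-strand probe uc.462+ fell from -0.37, -0.34 and -0.52 to -2.06, -3.30 and -2.49, by 2.20 (SE 0.30, adjusted p = 0.00858), with all 6 arrays well above background. With normexp this difference was -1.01 (adjusted p = 0.142). It was -0.75 ± 0.17 in WKY and -2.15 ± 0.30 in SHR-Bh (SD, n = 3 each). Its minus strand was well above background on 2 of 3 arrays in each group and was not tested. Without SHR-C 1, only uc.138- of these 2 kept its call.

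Among the named genes, 31 of 38 were tested and none passed limma's adjusted test, beside 0.412% of all probes. An unadjusted p under 0.05 was found for 4 of the 31, near the share over all probes, which was 13.3%. The remaining genes, Map2, Dlg4, Nlrp3, Pdk3, Napepld, Lhcgr and Gdnf, were well above background on all 3 arrays of neither group. The fitted difference was positive for 21 and negative for 10, from -1.47 to 1.30, with a median of 0.07. A gene's probe had 10 to 30 spots on each array. In bulk tissue, fewer cells of a type and less RNA per cell cannot be told apart.

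**Figure D4:**
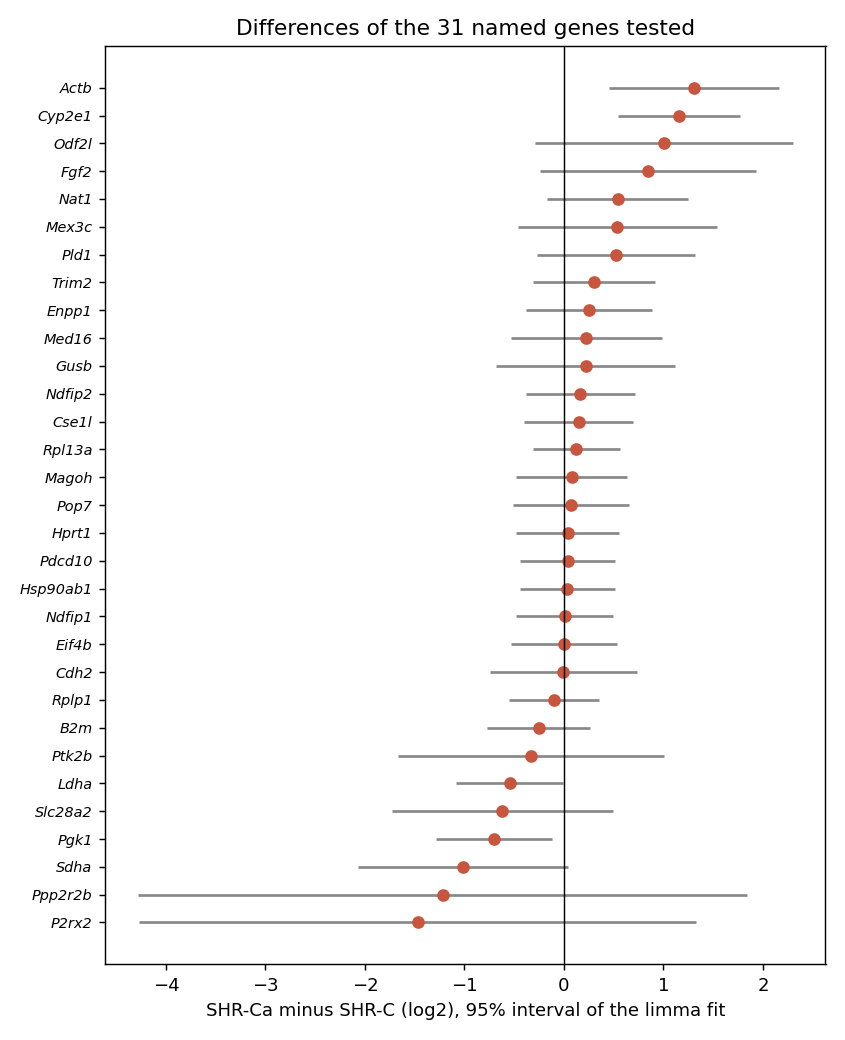
Fitted differences (SHR-Ca minus SHR-C, log2) of the 31 named genes tested, with the 95% interval of the limma fit. The intervals of Actb and Cyp2e1 lie above 0, those of Pgk1 and Ldha below 0, and the others cross it.

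Genes of xenobiotic metabolism had 2 of 10 list members on the array, neither of which passed the test. Cyp2e1, a cytochrome P450 that oxidises ethanol and other small molecules, was at 5.03, 4.59 and 5.41 in SHR-C and at 6.26, 5.97 and 6.28 in SHR-Ca. The groups did not overlap, as for 9.39% of all probes in that direction. The difference was 1.16 (SE 0.28, 95% interval 0.55 to 1.77), with an adjusted p of 0.141 by limma that became 0.0295 when the arrays were weighted. The level was 4.78 ± 0.46 in SHR-Bh and -2.56 ± 0.16 in WKY (SD, n = 3 each), so the captopril arrays were the farthest from WKY. Nat1, an arylamine N-acetyltransferase, was at 0.54, 0.50 and 1.16 against 1.00, 1.91 and 0.90, which overlapped (difference 0.54, adjusted p = 0.465).

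Genes of glycolysis and mitochondrial fuel use had 3 of 12 members on the array, all with negative differences and none past the test. Pgk1, phosphoglycerate kinase, was at 7.54, 7.44 and 7.81 in SHR-C and 7.30, 6.41 and 6.97 in SHR-Ca. All SHR-Ca arrays lay below all SHR-C arrays for Pgk1 alone of the named genes, beside 8.94% of all probes in that direction. Its difference was -0.70 (SE 0.27, adjusted p = 0.329). Ldha, lactate dehydrogenase A, was at 8.28, 8.12 and 8.28 against 8.15, 7.26 and 7.62 (difference -0.55, adjusted p = 0.367), and its second probe differed by -0.56. Sdha, the catalytic subunit of succinate dehydrogenase, was at 7.53, 7.51 and 8.08 against 7.72, 5.51 and 6.85 (difference -1.01, adjusted p = 0.391). SHR-Ca 2 was the lowest array for these 3 genes. Without it, their median difference was -0.42, against -0.70 with it.

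Reference genes are commonly used to scale expression because they vary little, and 10 of the 14 listed were on the array, including the 3 enzymes above. Actb, the cytoskeletal beta-actin, was at 3.27, 3.56 and 2.63 in SHR-C and 4.39, 4.52 and 4.47 in SHR-Ca. The SHR-Ca arrays lay close together above the untreated ones, and 9.39% of all probes had no overlap in that direction. Actb differed by 1.30 (SE 0.39, 95% interval 0.45 to 2.16, adjusted p = 0.242 by limma). It was 3.92 ± 0.60 in SHR-Bh and 3.57 ± 0.68 in WKY (SD, n = 3 each). The groups overlapped for the reference genes that follow. Their differences were -0.26 for B2m, the light chain of class I MHC, 0.22 for Gusb, a lysosomal glucuronidase, 0.04 for Hprt1, which salvages purines, and 0.03 for Hsp90ab1, a chaperone.

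In the translation list, the initiation factor Eif4b differed by 0.003, the ribosomal proteins Rpl13a and Rplp1 by 0.13 and -0.10, with SEs of 0.24, 0.20 and 0.21. Their 95% intervals reached at most 0.57 and -0.55, so 2-fold differences lay outside them. Among ubiquitin ligases and their adaptors, Trim2 differed by 0.30 and Mex3c by 0.54, and the Nedd4 adaptors Ndfip1 and Ndfip2 by 0.01 and 0.16. None of the 4 passed the test.

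**Figure D5:**
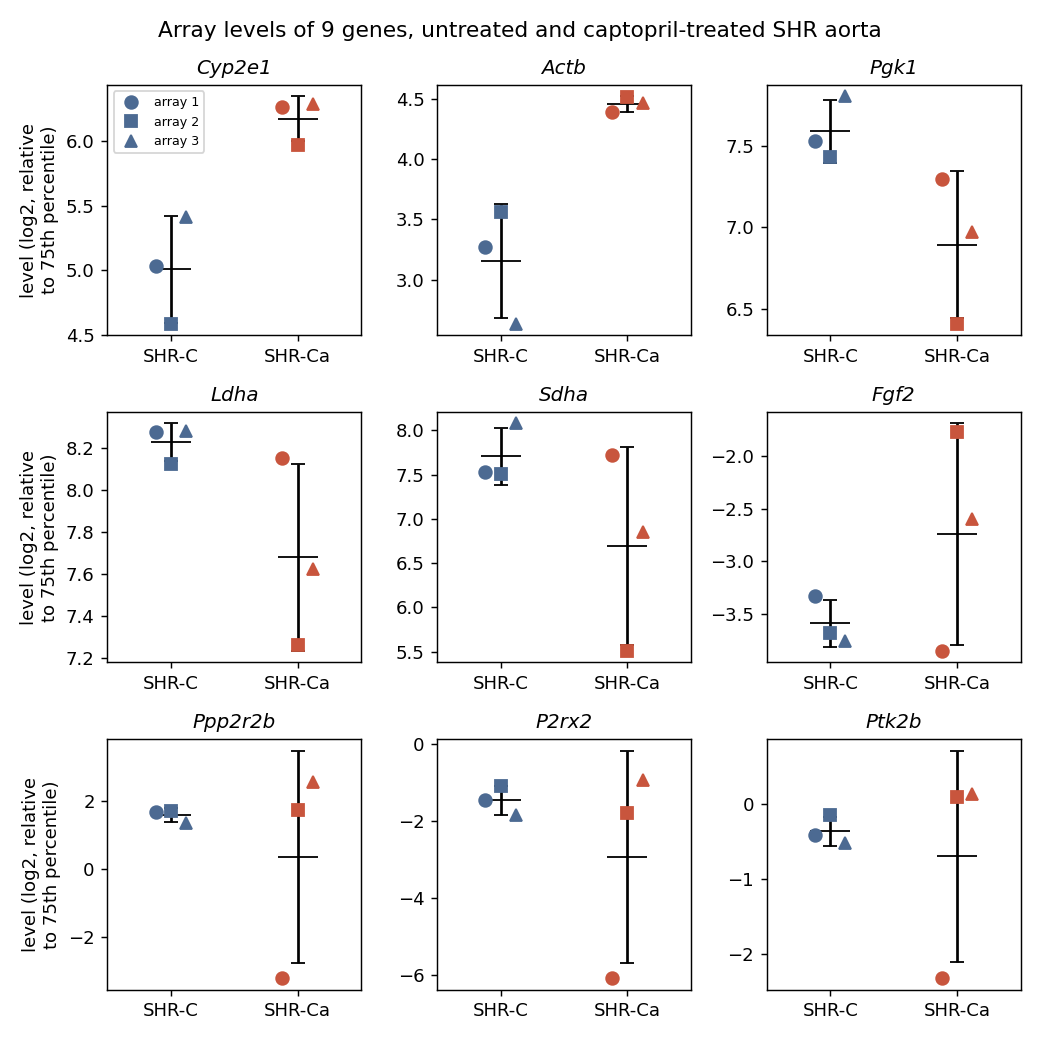
Levels (log2, relative to the array's 75th percentile) of 9 named genes on the 3 SHR-C and 3 SHR-Ca arrays, with mean and SD. Cyp2e1 and Actb are higher on every SHR-Ca array and Pgk1 lower, while Ppp2r2b, P2rx2 and Ptk2b have SHR-Ca 1 far below the other arrays.

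Among signalling genes, the spread within SHR-Ca exceeded the difference between groups. Ppp2r2b, which directs protein phosphatase 2A to its substrates, was at 1.67, 1.69 and 1.33 in SHR-C and -3.22, 1.73 and 2.53 in SHR-Ca. P2rx2, an ATP-gated ion channel, was at -1.47, -1.10 and -1.85 against -6.10, -1.79 and -0.95, and Ptk2b, a calcium-responsive tyrosine kinase, at -0.42, -0.15 and -0.53 against -2.32, 0.09 and 0.13. SHR-Ca 1 was the low array each time, and without it the differences turned from -1.22 to 0.57 for Ppp2r2b, from -1.47 to 0.11 for P2rx2 and from -0.33 to 0.48 for Ptk2b. The same genes were uneven in SHR-Bh too, where Ppp2r2b was at 1.42, -2.73 and -2.79. Pld1, a phospholipase D, was at -1.11, -1.05 and -0.59 against -1.31, 0.41 and -0.29 (difference 0.52, adjusted p = 0.515).

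Genes of adhesion, growth and vessel stability had 3 of 8 members on the array, and none passed. Fgf2, a growth factor for smooth muscle and endothelium, was at -3.33, -3.67 and -3.75 in SHR-C and -3.85, -1.77 and -2.60 in SHR-Ca, a difference of 0.84 (SE 0.49, adjusted p = 0.454) with SHR-Ca 1 below every SHR-C array. Cdh2, which is N-cadherin, was at 0.93, 0.86 and 0.65 against -0.12, 1.09 and 1.45 (difference -0.01). Pdcd10, known from cerebral cavernous malformation, differed by 0.04 (SE 0.22). Enpp1, which makes the calcification inhibitor pyrophosphate, was at 1.69, 1.62 and 1.90 against 1.90, 2.45 and 1.62, a difference of 0.25 (adjusted p = 0.704).

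The remaining tested genes belong to no list of several members. Odf2l, a protein of the centrosome, was at 0.85, 1.86 and 1.79 in SHR-C and 2.15, 2.11 and 3.26 in SHR-Ca. The groups did not overlap, as for 9.39% of all probes in that direction, and the difference was 1.01 against an SE of 0.59 (adjusted p = 0.457). Slc28a2, a nucleoside transporter, was at 4.84, 3.88 and 4.43 against 3.42, 4.75 and 3.12 (difference -0.62, adjusted p = 0.581). Cse1l, which returns importin alpha from the nucleus, differed by 0.15, Magoh of the exon junction complex by 0.08, Med16 of the Mediator complex by 0.23 and Pop7 of ribonuclease P by 0.07, each with overlapping groups.

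Captopril and BSJY arrays were also compared directly for the 31 genes, 3 unnamed probes and 2 elements above. None of these 36 passed limma's adjusted test of SHR-Ca against SHR-Bh (lowest adjusted p = 0.603). No probe among all those tested passed it, so this holds for all probes and not for these alone. Cyp2e1 differed by 1.39 (SE 0.28) in that comparison, Pgk1 by -0.81 (SE 0.27) and ASRNV20003716 by -1.22 (SE 0.36). Against the same SHR-C arrays, ASRNV20003716 fell by 2.79 in SHR-Bh (adjusted p = 0.0184), and uc.462+ fell by 1.74 (adjusted p = 0.0468). The fitted difference of uc.138- there was -2.10 (adjusted p = 0.0343), with only 1 SHR-Bh array well above background. All of these were chosen for a fall against the same SHR-C arrays, so these p-values are not independent evidence of a fall with BSJY. No SHR-Bh array shared a scan session with an SHR-C array, so group and session cannot be told apart there.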

How the data were processed

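The authors deposited 1 scanner output per array. The processed intensity of each spot was made by Agilent Feature Extraction 11.0.1.1, per the file headers, as were its flags for outliers, saturation and signal well above background. The deposited flags (other values) were used as given. No spot was saturated. Outlier spots were dropped, log2 intensities averaged per probe, and the array's 75th percentile subtracted. A probe was well above background where at least 0.5 of its spots were. Genes were named by accession through RefSeq's GRCr8 table; the array design names another build, so no coordinates are given.

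All 12 arrays were fitted in limma 3.58.1 (R 4.3.3) by group means, and the two-sided p-values of the moderated test were adjusted over 22790 probes (Benjamini-Hochberg). The fit was tested on simulated data. Every tested named gene is reported by its brightest probe, with passing ultraconserved probes and up to 2 unnamed probes per direction. The comparison, gene lists and rules were chosen with earlier results of these data known. A shared scan time in the file headers defined the sessions. Other settings were the scaling, background correction, filter, outlier spots, variance model, weights, arrays fitted, session, replicate number, probes of a gene and leaving out each array.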

Additional observations from a re-analysis of the deposited data

How the results depend on the processing

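Against 94 probes called, normexp background correction gave 11, the filter for all 6 arrays 34, array weights 307 (37 higher, 270 lower), the 9 SHR arrays 54, and leaving out single arrays 36 to 160 (36, 58 and 70 when SHR-C arrays 1 to 3 were dropped in that order, and 160, 51 and 49 for SHR-Ca arrays 1 to 3). limma called 0 with only the compared groups, the replicate block, the session as a fixed block or the shared session alone (2093, 1779, 879 and 762 at an unadjusted p under 0.05). These fits rest on fewer arrays or spend degrees of freedom on the block. The replicate numbers did not pair the samples: same-numbered arrays correlated at -0.0756, -0.222 and -0.170 in their deviations. All 93 falls that had a value stayed below 0 in every setting. Since their groups did not overlap, leaving out or weighting arrays could not turn the sign. Their median was -0.60 with normexp against -2.41, where the offset of 50 itself shrinks dim signals. Normexp ran on the median signal, since the files used here have no mean signal. Of the named genes, array weights called 1, Cyp2e1. Of the ultraconserved probes, 2 were called, against 0 with normexp, only the compared groups, the replicate block, the fixed session block and the shared session, 1 with the filter for all 6 arrays, 4 with array weights and 1 to 2 without single arrays. The median over all probes was -0.02, and 0.04 after quantile normalization or 0.10 after median scaling.

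No named gene that changed sign had passed the test. Quantile normalization gave Rplp1 0.11, median scaling 0.024 and 0.12 for Cdh2, normexp Cdh2 0.03 and outlier spots kept Cdh2 0.013. Array weights gave Cdh2 0.42, Eif4b -0.023, Magoh -0.055, Pdcd10 -0.051, Ppp2r2b 0.16 and Ptk2b 0.13. The fixed session block and the shared session each gave Eif4b -0.19, Hsp90ab1 -0.22, Ndfip1 -0.10, Pdcd10 -0.044, Rplp1 0.098 and Trim2 -0.042. Without single arrays, Cdh2 ran from -0.32 to 0.46, Eif4b from -0.16 to 0.17, Gusb from -0.22 to 0.58, Hprt1 from -0.097 to 0.12, Hsp90ab1 from -0.12 to 0.13, Magoh from -0.15 to 0.21, Ndfip1 from -0.067 to 0.070, Ndfip2 from -0.011 to 0.28, P2rx2 from -2.47 to 0.11, Pdcd10 from -0.070 to 0.14, Pop7 from -0.20 to 0.25, Ppp2r2b from -2.31 to 0.57, Ptk2b from -0.75 to 0.48, Rpl13a from -0.023 to 0.22 and Rplp1 from -0.23 to 0.085. The causes were not tested.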
